A study of Homo sapiens with 9 samples.

Results

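The SUN, nesprin and torsin genes examined here are 8 genes, taken by their symbols: SUN1, SUN2, SYNE1, SYNE2, SYNE3, SYNE4, TOR1A and TOR1AIP1. All 8 were found among the 62666 genes of the deposited tables, and all 8 were among the 17910 genes with enough counts to be tested. For SYNE1 and SYNE2, the 51 and 30 transcripts listed under each gene were also read. The study sequenced polyadenylated RNA of 3 related human breast epithelial cell lines, in 3 libraries each, to follow gene expression along a model of breast cancer progression. MCF10A is an immortalized line that does not form tumours, MCF10AT1 is a premalignant derivative that carries an introduced activated HRAS, and MCF10Ca1a is a malignant line of the same lineage. All were cultured in DMEM/F12 with insulin, L-glutamine, epidermal growth factor, hydrocortisone and cholera toxin, with horse serum at 5% for MCF10A and MCF10Ca1a and at 2.5% for MCF10AT1, so that line and serum cannot be told apart for MCF10AT1. Each stage is represented by 1 cell line, and the labels do not say that the libraries of a line came from separate cultures. The p-values therefore measure only the spread between these libraries, which may be technical.

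SUN proteins span the inner nuclear membrane, and nesprins, encoded by the SYNE genes, are anchored in the outer nuclear membrane by a short carboxy-terminal KASH tail that SUN proteins grip in the space between the membranes. The pair forms the LINC complex, which ties the nuclear lamina to the cytoskeleton and moves and positions the nucleus in epithelial cells. Giant nesprin-1 and nesprin-2 (SYNE1 and SYNE2) bind actin, nesprin-3 (SYNE3) binds plectin and thereby intermediate filaments, and nesprin-4 (SYNE4) binds the motor kinesin-1. TorsinA (TOR1A) is an ATPase of the same membrane space, and LAP1 (TOR1AIP1) is the inner membrane protein that activates it.

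The tail that SUN proteins grip is written in the last codons of each nesprin gene, and these ends are shown because they define the group. The shorter SYNE2 and SYNE1 transcripts are also split further on by whether an exon holds the stop codon of this end. The 48 bases that end at the stop codon are given 5′ to 3′ on the coding strand, from GENCODE 29 on GRCh38, with the last 4 codons before the stop in capitals. They lie at chr6:152122436-152122483 (minus strand) for SYNE1, chr14:64225479-64225526 (plus) for SYNE2, chr14:95417826-95417873 (minus) for SYNE3 and chr19:36003337-36003384 (minus) for SYNE4, each within 1 coding exon.
SYNE1: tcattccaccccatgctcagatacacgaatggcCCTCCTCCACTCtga
SYNE2: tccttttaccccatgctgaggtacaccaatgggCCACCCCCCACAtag
SYNE3: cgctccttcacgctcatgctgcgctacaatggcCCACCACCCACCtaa
SYNE4: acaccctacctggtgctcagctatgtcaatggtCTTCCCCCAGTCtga
Of the 4 capital codons, 3 begin with CC (proline) in SYNE1, SYNE2 and SYNE3, and 2 do in SYNE4. SYNE1 and SYNE2 share 33 of the 48 bases. SYNE4 shares 32 with SYNE1 and 26 with SYNE2, and SYNE3 shares 22 and 28 in the same order.

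The makeup of nesprin RNA differed between the lines, whose libraries did not overlap in the share of SYNE2 or SYNE4. Per length, in TPM (the authors' transcript abundance per unit of length, scaled to a fixed total in each library), SYNE2 held 88.6% ± 1.37 (SD, n = 3) of the summed TPM of the 4 nesprin genes in MCF10A. In MCF10AT1 the largest share was that of SYNE4, at 70.8% ± 2.38 (SD, n = 3), against 0.599% ± 0.0681 in MCF10A. In MCF10Ca1a SYNE1 held 40.6% ± 8.32 and SYNE2 39.0% ± 9.28 (SD, n = 3), whose ranges overlapped. Of the 2.26 TPM of SYNE1 there, 2.04 TPM was shorter transcripts without the KASH-coding end, resting on few reads, and in reads SYNE1 stood at 3.97 CPM against 23.2 CPM for SYNE2. The summed nesprin level was 15.8, 17.2 and 20.0 TPM in the libraries of MCF10A and 20.8 to 21.3 TPM in those of MCF10AT1. It was 5.52, 5.55 and 5.64 TPM in MCF10Ca1a, below every library of the other lines. The summed level of the SUN genes was 92.5 to 125 TPM in MCF10A, 83.4 to 87.0 TPM in MCF10AT1 and 107 to 114 TPM in MCF10Ca1a, so that MCF10Ca1a lay within the range of MCF10A. These sums take a gene's whole TPM, fragments without the KASH-coding end included.

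On the TPM scale SUN1 was the most abundant of the 8 genes in every line, at a mean of 75.6, 61.2 and 70.2 TPM in MCF10A, MCF10AT1 and MCF10Ca1a. In MCF10A it was followed by TOR1AIP1 (61.0), TOR1A (43.4), SUN2 (34.5), SYNE2 (15.7), SYNE1 (1.36), SYNE3 (0.566) and SYNE4 (0.107), and the libraries of no neighbours in this order overlapped. In MCF10AT1 the order was TOR1A (44.8), TOR1AIP1 (32.96), SUN2 (24.04), SYNE4 (14.9), SYNE2 (4.10), SYNE3 (1.49) and SYNE1 (0.561), again with no overlap between neighbours. In MCF10Ca1a TOR1AIP1 (41.5) and SUN2 (40.2) overlapped, TOR1A stood at 27.5, SYNE1 (2.26) and SYNE2 (2.17) overlapped, and SYNE4 (0.908) and SYNE3 (0.230) came last.

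**Figure D1:**
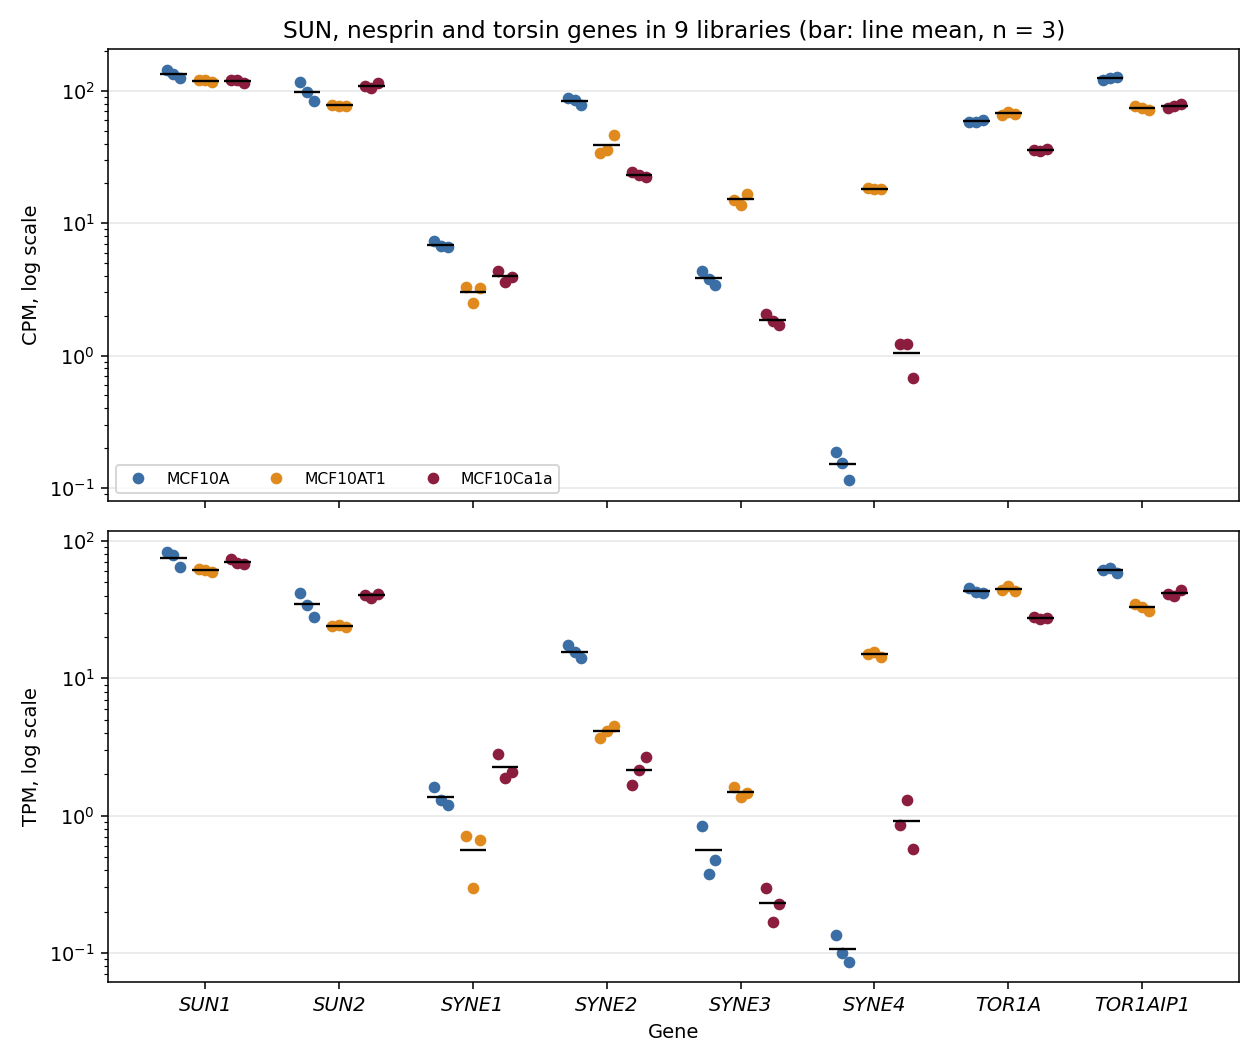
Level of each gene in each of the 9 libraries, as read counts scaled to library size (CPM, upper panel) and TPM (lower panel), both on log axes; dots are libraries and bars the mean of a line (n = 3). SYNE4 spans the widest range, from 0.115 CPM in MCF10A to 18.3 CPM in MCF10AT1, while SUN1 stays between 116 and 144 CPM.

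Changes in estimated read counts were called at an adjusted p under 0.05 (edgeR, quasi-likelihood; p-values were adjusted by Benjamini and Hochberg's method across the 17910 genes). In bulk RNA, fewer cells with a transcript and less of it per cell cannot be told apart. Between MCF10AT1 and MCF10A, 8 of the 8 genes passed, where 61.6% of all genes tested did: SYNE3, SYNE4 and TOR1A rose (29.8% of all genes did) and SUN1, SUN2, SYNE1, SYNE2 and TOR1AIP1 fell (31.8% did). Between MCF10Ca1a and MCF10A, 7 passed, where 80.9% of all genes did: SYNE4 rose (39% of all genes) and SUN1, SYNE1, SYNE2, SYNE3, TOR1A and TOR1AIP1 fell (41.9%). Between MCF10Ca1a and MCF10AT1, 6 passed, where 78.4% of all genes did: SUN2 and SYNE1 rose (38%) and SYNE2, SYNE3, SYNE4 and TOR1A fell (40.3%). With so large a share of genes changed, these counts do not set the group apart. Changes of at least 2-fold were called for SYNE1, SYNE2, SYNE3 and SYNE4 in MCF10AT1 against MCF10A (18% of all genes), for SYNE2, SYNE3 and SYNE4 in MCF10Ca1a against MCF10A (42.9%), and for SYNE3 and SYNE4 in MCF10Ca1a against MCF10AT1 (37.7%). The libraries of the lines compared did not overlap in CPM for 8, 7 and 6 of the 8 genes, as for 65.4%, 81.5% and 81.9% of all genes. Of all genes called, 48.4% were higher in MCF10AT1 than in MCF10A on counts and 37.0% on the log2(TPM + 0.1) scale, and for MCF10Ca1a against MCF10AT1 these shares were 48.5% and 61.2%. The 3 comparisons share libraries and are therefore not independent. The median size of the log2 change over the 8 genes was 0.93, 0.76 and 0.62 in the same order of comparisons, against 0.38, 0.84 and 0.76 over all genes tested.

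**Figure D2:**
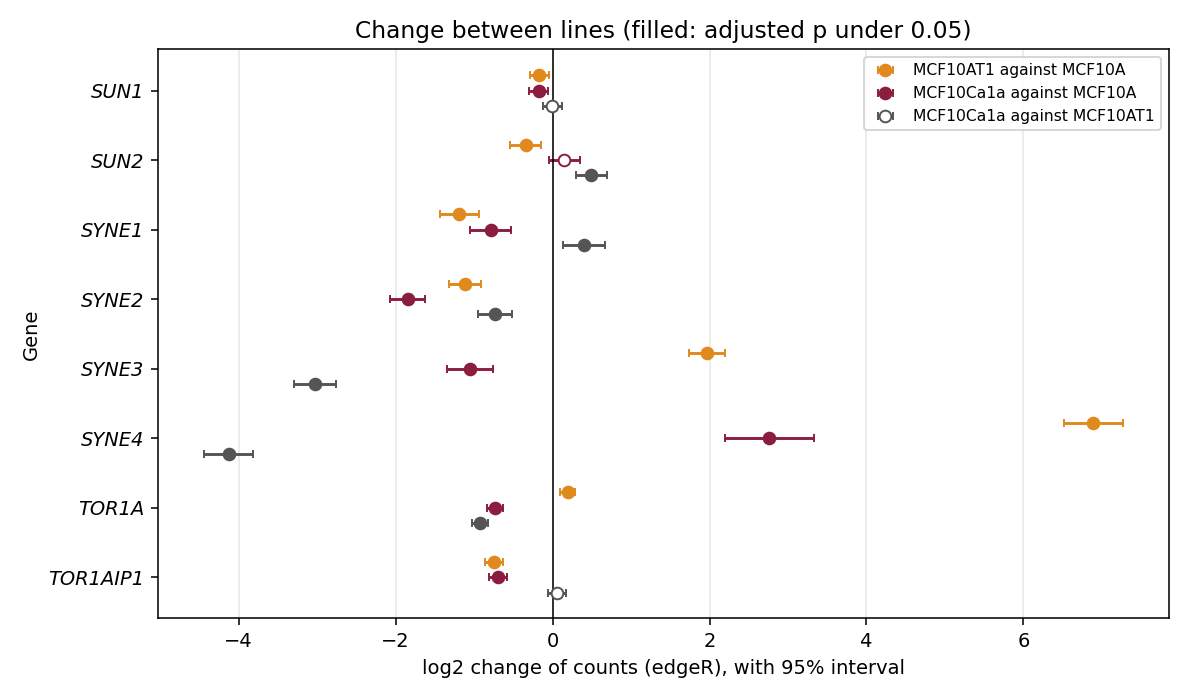
log2 change of estimated counts for each gene in the 3 comparisons, with 95% intervals from edgeR; filled points have an adjusted p under 0.05 and open points do not. SYNE4 shows the widest change of the 8 genes in each comparison, from -4.13 (MCF10Ca1a against MCF10AT1) to 6.89 (MCF10AT1 against MCF10A), and both SUN genes lie within 0.50 of 0.

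SYNE4, on chromosome 19 (36003299 to 36008793, minus strand), was nearly silent in MCF10A. The MCF10A libraries had 12, 10 and 8 counts, the MCF10AT1 libraries 1223, 1198 and 1131, and the MCF10Ca1a libraries 44, 41 and 24, which correspond to 0.115 to 0.187 CPM, 18.1 to 18.3 CPM and 0.677 to 1.23 CPM. The 3 lines did not overlap, with MCF10AT1 highest and MCF10A lowest. SYNE4 rose by 6.89 on the log2 scale from MCF10A to MCF10AT1 (SE 0.175; 119-fold; edgeR adjusted p = 1.03e-12), and the size of that fold rests on the 8 to 12 counts in MCF10A. It stood 2.76 (SE 0.264) higher in MCF10Ca1a than in MCF10A (edgeR adjusted p = 2.78e-07) and fell by 4.13 (SE 0.144) from MCF10AT1 to MCF10Ca1a (adjusted p = 8.68e-12). Of all genes tested, 1.04% had a larger change than SYNE4 between MCF10AT1 and MCF10A. The share was 13.2% between MCF10Ca1a and MCF10A and 4.48% between MCF10Ca1a and MCF10AT1.

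SYNE3, on chromosome 14 (95407266 to 95475836, minus strand), was also highest in MCF10AT1. Its level was 4.38, 3.82 and 3.41 CPM in MCF10A, 15.1, 13.7 and 16.7 CPM in MCF10AT1, and 2.07, 1.81 and 1.69 CPM in MCF10Ca1a. No libraries of different lines overlapped. It rose 3.92-fold from MCF10A to MCF10AT1 (log2 change 1.97, SE 0.106; edgeR adjusted p = 2.08e-09) and was 2.08-fold lower in MCF10Ca1a than in MCF10A (log2 change -1.06, SE 0.136; adjusted p = 6.30e-06). From MCF10AT1 to MCF10Ca1a it fell by 3.03 on the log2 scale (SE 0.126; adjusted p = 4.93e-11), so that SYNE3 and SYNE4 both rose and fell between the same lines, while MCF10Ca1a stayed above MCF10A for SYNE4 and below it for SYNE3. The size of the SYNE3 changes depended on the scale, with the direction and the call kept. The change between MCF10AT1 and MCF10A was 1.54 on length-scaled counts (edgeR), 1.31 on log2(TPM + 0.1) and 0.68 on log2(TPM + 1) (limma), that between MCF10Ca1a and MCF10A was -1.44, -0.97 and -0.34 in the same order, and that between MCF10Ca1a and MCF10AT1 was -2.98, -2.28 and -1.02. For SYNE4 the log2(TPM + 1) scale gave 3.84 in MCF10AT1 and 0.77 in MCF10Ca1a against MCF10A, with 1 TPM added to a mean level of 0.107 TPM in MCF10A. Between MCF10Ca1a and MCF10AT1 that scale gave -3.08, and each of the 3 changes was called (limma).

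The start regions of SYNE3 and SYNE4, which both rose in MCF10AT1, are shown beside those of SYNE2, which fell there. The RefSeq table (GRCh38.p14) holds windows from 250 bases before to 50 after an annotated start for 6 of the 8 genes, 14 windows in all. Capitals mark the letters GGGCGG (the GC box) or CCAAT on either strand, and no window shown holds both. The windows are SYNE4 at chr19:36008764-36009063 (minus strand), SYNE3 at chr14:95516601-95516900 (minus), which lies upstream of the GENCODE 29 gene, SYNE2 at the start of its giant transcripts, chr14:63852754-63853053 (plus), and SYNE2 at the internal start of its short transcript SYNE2-207, chr14:64213894-64214193 (plus). SYNE2-207 reached at most 0.532 TPM in a library. The more abundant short transcripts SYNE2-205 (up to 4.30 TPM) and SYNE2-220 (up to 2.82 TPM) start elsewhere, at chr14:64075615 and chr14:64141438, and their starts are not shown.
SYNE4 start: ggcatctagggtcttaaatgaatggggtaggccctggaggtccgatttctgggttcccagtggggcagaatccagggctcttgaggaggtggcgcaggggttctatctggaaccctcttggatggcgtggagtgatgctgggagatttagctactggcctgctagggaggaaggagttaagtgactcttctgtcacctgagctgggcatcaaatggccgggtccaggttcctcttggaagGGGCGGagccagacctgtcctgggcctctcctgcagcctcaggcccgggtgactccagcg
SYNE3 start: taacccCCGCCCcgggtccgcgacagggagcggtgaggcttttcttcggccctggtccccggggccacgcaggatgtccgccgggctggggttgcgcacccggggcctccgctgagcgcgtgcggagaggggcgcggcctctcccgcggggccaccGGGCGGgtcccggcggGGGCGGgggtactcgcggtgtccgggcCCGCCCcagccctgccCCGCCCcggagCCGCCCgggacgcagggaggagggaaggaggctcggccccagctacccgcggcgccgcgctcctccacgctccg
SYNE2 giant start: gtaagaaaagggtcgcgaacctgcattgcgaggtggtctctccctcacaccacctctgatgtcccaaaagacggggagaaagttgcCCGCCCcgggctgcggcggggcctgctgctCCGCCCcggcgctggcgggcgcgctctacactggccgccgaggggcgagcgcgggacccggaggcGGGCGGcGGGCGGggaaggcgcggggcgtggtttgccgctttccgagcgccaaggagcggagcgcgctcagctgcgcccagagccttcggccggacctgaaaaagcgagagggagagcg
SYNE2 short start: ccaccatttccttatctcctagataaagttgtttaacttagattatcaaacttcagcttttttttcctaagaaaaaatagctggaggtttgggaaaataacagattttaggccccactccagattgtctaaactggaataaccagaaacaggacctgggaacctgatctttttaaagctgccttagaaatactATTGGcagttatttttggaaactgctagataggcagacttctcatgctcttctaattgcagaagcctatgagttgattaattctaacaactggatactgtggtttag
The windows differ in CG dinucleotides, with 7 in SYNE4, 42 in SYNE3, 38 at the giant start of SYNE2 and 0 at its short start, against a median of 14 over the 35116 windows of the table. The other RefSeq start of SYNE3 has 6, and a further internal start of SYNE2 has 4 and 1 GC box. The SYNE4 window holds 1 GC box and the SYNE3 window 6, a motif present in 45.0% of all windows. The giant start of SYNE2 holds 4 GC boxes, and its short start holds none and 1 CCAAT box, which 34.6% of all windows hold. TATAAA (11.5% of windows) and TGANTCA, the AP-1 letters (7.71%), occur in none of these 4 windows. A match is a description of letters, not of binding.

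SYNE2, on chromosome 14 (63852983 to 64226433, plus strand, 373 kb), fell at both steps. Its level was 88.0, 84.9 and 78.2 CPM in MCF10A, 33.9, 35.8 and 46.4 CPM in MCF10AT1, and 24.4, 23.0 and 22.3 CPM in MCF10Ca1a. The lines did not overlap, and MCF10AT1 replicate 3 lay above the other libraries of its line. That library was also the highest of its line for other large genes named further on. These were PLEC, DYNC1H1 (280 against 214 and 214 CPM), MACF1 (153 against 119 and 117 CPM), DST, UTRN and DMD. It was the lowest for SUN1 and TOR1AIP1, and a link to gene length was not tested. SYNE2 fell by 1.11 on the log2 scale from MCF10A to MCF10AT1 (SE 0.0947; edgeR adjusted p = 2.36e-07) and by 0.73 from MCF10AT1 to MCF10Ca1a (SE 0.101; adjusted p = 1.37e-05), a 3.60-fold difference between MCF10Ca1a and MCF10A (log2 change -1.85, SE 0.101; adjusted p = 6.38e-10). In TPM, which divides out transcript length, the gene stood at 15.7 ± 1.68, 4.10 ± 0.416 and 2.17 ± 0.501 (SD, n = 3), and MCF10Ca1a differed from MCF10A by -2.82 on the log2(TPM + 0.1) scale (limma adjusted p = 5.92e-08). On counts scaled for length the changes were larger than on counts, at -1.80 and -3.01 for MCF10AT1 and MCF10Ca1a against MCF10A and -1.21 between the derived lines (edgeR, each called). The mean effective length implied by counts and TPM was 7.29 to 7.57 kb in MCF10A, 11.0 to 12.8 kb in MCF10AT1 and 12.4, 16.03 and 21.99 kb in MCF10Ca1a. Both derived lines lay above MCF10A, and they overlapped each other.

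Transcripts of SYNE2 were sorted by the effective length implied by their counts and TPM and by their GENCODE 29 models. Giant transcripts have an effective length of at least 15000 bases. For long transcripts this length exceeds that of the model, as for SYNE2-205 (12996 against 11095 bases). Shorter ones were split by whether an exon holds the stop codon of the KASH-coding end shown earlier, whether or not the model is coding. Transcripts with no matching GENCODE 29 model were left unplaced. The giant transcripts of SYNE2 summed to 0.992, 1.15 and 1.04 TPM in MCF10A, 1.01, 1.03 and 1.60 TPM in MCF10AT1 and 1.45, 1.28 and 1.10 TPM in MCF10Ca1a. All 3 lines overlapped (exact permutation test, two-sided p = 0.7, 0.2 and 0.8 in the order of the comparisons, adjusted p = 0.84, 0.3 and 0.923 over 30 tests). Shorter transcripts with the KASH-coding end summed to 7.83 to 10.8 TPM in MCF10A, 1.79 to 2.12 TPM in MCF10AT1 and 0.219 to 0.638 TPM in MCF10Ca1a, with no overlap between any lines. MCF10A was 4.55 times MCF10AT1 and 23.8 times MCF10Ca1a by these means, and MCF10AT1 was 5.23 times MCF10Ca1a. Each of these exact permutation tests gave p = 0.1, which is the smallest that 3 libraries against 3 allow (adjusted p = 0.176). Of the shorter transcripts with the KASH-coding end, only SYNE2-207, at most 0.532 TPM in a library, has a coding model. SYNE2-205 and SYNE2-206 are retained-intron models, and SYNE2-220 and ENST00000553289.5 are models marked for nonsense-mediated decay. Whether these yield a KASH protein was not tested.

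The unplaced SYNE2 transcripts summed to 5.52, 5.22 and 4.81 TPM in MCF10A, 0.483, 0.954 and 0.412 TPM in MCF10AT1 and 0, 0.368 and 0.0652 TPM in MCF10Ca1a. MCF10A lay far above both derived lines, and the sum of MCF10Ca1a came mostly from replicate 2. Giant transcripts made up 6.85% ± 1.01 of SYNE2 TPM in MCF10A, 29.4% ± 5.45 in MCF10AT1 and 62.4% ± 23.0 in MCF10Ca1a (SD, n = 3). The limit of 15000 bears on this result, since SYNE2-205 (a retained-intron model of 63 exons), the most abundant in MCF10A of the shorter transcripts with the KASH-coding end, lies below it. If transcripts from 10000 are counted as giant, a limit chosen after the data were seen, the giant sum differed from MCF10A by -2.37 TPM in MCF10AT1 and by -3.22 TPM in MCF10Ca1a.

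**Figure D3:**
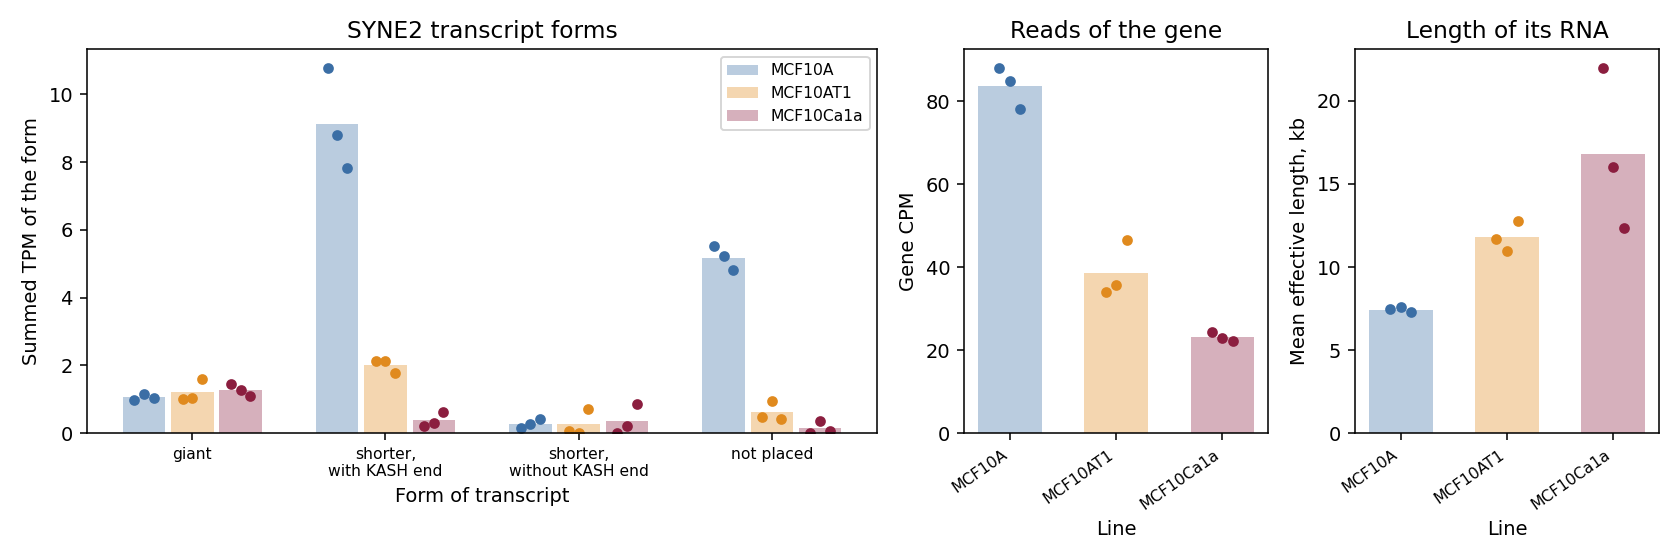
SYNE2 by form of transcript in summed TPM (left), gene CPM (middle) and mean effective length in kb (right); bars are means of 3 libraries and dots are libraries. The giant sum lies between 0.992 and 1.60 TPM in all 9 libraries, while shorter transcripts with the KASH-coding end go from 9.13 TPM in MCF10A to 0.384 TPM in MCF10Ca1a.

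Among single SYNE2 transcripts, the giant SYNE2-202 was listed at 0 in the 3 libraries of MCF10A and at 0, 0 and 0.463 TPM in MCF10AT1, and reached 0.864, 0.886 and 0.932 TPM in MCF10Ca1a. The other main giant entry, ENST00000555002.6, went the other way, from 0.952 to 1.10 TPM in MCF10A to 0.147 to 0.554 TPM in MCF10Ca1a, and neither line's range overlapped the other's for either entry. Its effective length of 24489 bases is close to the 24285 of SYNE2-202, but its GENCODE 29 model, an earlier version of the entry, spans 11532 bases. The giant sum in MCF10A was therefore nearly all from an entry whose length is known here only from its counts and TPM. Salmon divides reads that fit several transcripts, so that an exact 0 may be a failed estimate. The shorter SYNE2-205 stood at 4.30, 3.42 and 2.82 TPM in MCF10A, 1.06, 0.781 and 1.15 TPM in MCF10AT1, and 0, 0 and 0.259 TPM in MCF10Ca1a. The unplaced ENST00000673797.1, the most abundant SYNE2 entry of MCF10A by its mean, stood at 4.28, 4.28 and 3.80 TPM there, and only 1 library of each derived line held any (0.678 TPM in MCF10AT1 and 0.368 TPM in MCF10Ca1a). SYNE2-206, ENST00000553289.5, SYNE2-220 and the unplaced ENST00000673869.1 were likewise higher in every library of MCF10A (0.945 to 2.82 TPM) than in any library of the derived lines (0 to 0.591 TPM). ENST00000553455.1, without the KASH-coding end, was listed at 0 in MCF10A and reached 0.454 TPM in 1 MCF10AT1 library and 0.220 and 0.575 TPM in 2 MCF10Ca1a libraries.

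The share of each transcript within its gene was tested with limma over 92349 transcripts, as the log2 ratio of its TPM to that of the rest of the gene with 0.1 TPM added to both. Of 12 SYNE2 transcripts tested, 0 passed between MCF10AT1 and MCF10A, where 0.768% of all transcripts did (8 had an unadjusted limma p under 0.05), and 4 passed in each comparison of MCF10Ca1a, where 16.1% (against MCF10A) and 11.9% (against MCF10AT1) did. Adding a fixed TPM moves this ratio with the level of the gene: the giant ENST00000358025.7 passed in MCF10Ca1a against MCF10A with a change of 2.82 although it was listed at 0 in all 6 libraries. The share was therefore also tested with 1% of the gene added in place of 0.1 TPM, together with a lower gene minimum of 0.1 TPM in place of 0.5 TPM, which gave 96035 transcripts. Both settings were chosen after the data were seen, and the lower minimum alone called 0, 4 and 4 SYNE2 transcripts. Together they called 0, 5 and 5 SYNE2 transcripts in the order of the comparisons, beside 1.40%, 15.2% and 11.5% of all transcripts (limma; 3, 7 and 7 at an unadjusted p under 0.05). SYNE2-202 rose in share in MCF10Ca1a under both settings (log2 change 6.89 and 6.23 against MCF10A; limma adjusted p = 5.78e-04 and 0.00472). SYNE2-205 fell in share under both (log2 change -2.04 and -3.71; limma adjusted p = 0.0197 and 0.0338).

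SYNE1, on chromosome 6 (152121684 to 152637801, minus strand, 516 kb), differed in direction with the scale between MCF10Ca1a and MCF10A. Its level in reads was 7.28, 6.74 and 6.59 CPM in MCF10A, 3.28, 2.50 and 3.25 CPM in MCF10AT1, and 4.36, 3.60 and 3.95 CPM in MCF10Ca1a. No lines overlapped, with MCF10A highest and MCF10AT1 lowest. SYNE1 fell 2.28-fold from MCF10A to MCF10AT1 (log2 change -1.19, SE 0.115; edgeR adjusted p = 8.59e-07) and was 1.73-fold lower in MCF10Ca1a than in MCF10A (log2 change -0.79, SE 0.119; adjusted p = 2.91e-05). The rise from MCF10AT1 to MCF10Ca1a by 0.40 (SE 0.125; adjusted p = 0.00995) was not called without MCF10AT1 replicate 2 (adjusted p = 0.0575) or without MCF10Ca1a replicate 1 (adjusted p = 0.0528). It was larger and called on counts scaled for length by the authors (1.72; edgeR adjusted p = 7.10e-05) and on the log2(TPM + 1) and log2(TPM + 0.1) scales (1.06 and 1.89; limma adjusted p = 4.21e-05 and 9.27e-05). In TPM, however, SYNE1 stood at 1.61, 1.29 and 1.19 TPM in MCF10A, 0.717, 0.300 and 0.667 TPM in MCF10AT1, and 2.82, 1.89 and 2.08 TPM in MCF10Ca1a, so that MCF10Ca1a was the highest line. On the log2(TPM + 1) scale MCF10AT1 differed from MCF10A by -0.60 (limma adjusted p = 0.00378), MCF10Ca1a was 0.46 above MCF10A (limma adjusted p = 0.0102), and on counts scaled for length by the authors it was 0.57 above and was not called (edgeR adjusted p = 0.0517).

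The mean effective length of SYNE1 RNA was 6.69 to 7.29 kb in MCF10A, 5.82 to 10.6 kb in MCF10AT1 and 2.32 to 2.88 kb in MCF10Ca1a, which overlapped neither other line. Giant SYNE1 transcripts were scarce throughout, at a mean of 0.0516, 0.0148 and 0.0236 TPM. Shorter transcripts with the KASH-coding end summed to 0.852, 0.487 and 0.597 TPM in MCF10A, 0.323, 0.175 and 0.282 TPM in MCF10AT1 and 0.122, 0.122 and 0.183 TPM in MCF10Ca1a. Both derived lines lay below MCF10A without overlap, and they overlapped each other. Of these transcripts, ENST00000367256.9 and ENST00000409694.6 are retained-intron models and SYNE1-215 is a processed transcript. SYNE1-205, at most 0.239 TPM in a library, is a coding model. Shorter transcripts without the KASH-coding end summed to 0.488 to 0.748 TPM in MCF10A, 0.106 to 0.385 TPM in MCF10AT1 and 1.71 to 2.52 TPM in MCF10Ca1a, with no overlap between any lines. MCF10AT1 was 2.26 times lower than MCF10A by the means, and MCF10Ca1a was 3.15 times as high as MCF10A (each exact permutation p = 0.1, the smallest possible; adjusted p = 0.176). They made up 90.1% ± 0.767 of SYNE1 TPM in MCF10Ca1a, against 47.6% ± 8.94 in MCF10A (SD, n = 3).

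Most of that sum was 1 transcript, SYNE1-214 (ENST00000454018.7, a coding model of 7 exons in the middle of the gene at chr6:152366992-152381362), which lacks the KASH-coding end. Its estimated counts were 20, 17 and 22 in MCF10A, with 16, 0 and 15 for MCF10AT1 and 79, 39 and 66 for MCF10Ca1a, or 0.235 to 0.300, 0 to 0.205 and 1.13 to 2.14 TPM. MCF10Ca1a lay above every other library. The other 8 SYNE1 transcripts with 5% or more of a line's SYNE1 TPM (SYNE1-205, ENST00000367256.9, ENST00000409694.6, SYNE1-215, SYNE1-219, SYNE1-223, SYNE1-227 and SYNE1-238) stayed at or below 0.457 TPM, and each was listed at 0 in at least 1 library. In the share test SYNE1 was not tested at first because MCF10AT1 replicate 2 fell under the gene minimum of 0.5 TPM. With a minimum of 0.1 TPM, chosen after the data were seen, the share of SYNE1-214 rose by 3.12 (SE 0.469) between MCF10Ca1a and MCF10A (limma adjusted p = 0.00458), the only 1 of 6 SYNE1 transcripts called there, where 16.2% of all transcripts were (limma; 4 of the 6 at an unadjusted p under 0.05). At that minimum 0 of 6 were called between MCF10AT1 and MCF10A (0.868% of all; 1 at an unadjusted limma p under 0.05) and 3 between MCF10Ca1a and MCF10AT1 (12% of all). With 1% of the gene added in place of 0.1 TPM the change was 3.53 (SE 1.40) and was not called (limma adjusted p = 0.148). At 166 to 219 SYNE1 reads a library in MCF10AT1 and 121 to 156 in MCF10Ca1a, the split between forms is imprecise. The antisense gene SYNE1-AS1, which shares 303 exonic bases with SYNE1, had 0 to 2 counts.

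**Figure D4:**
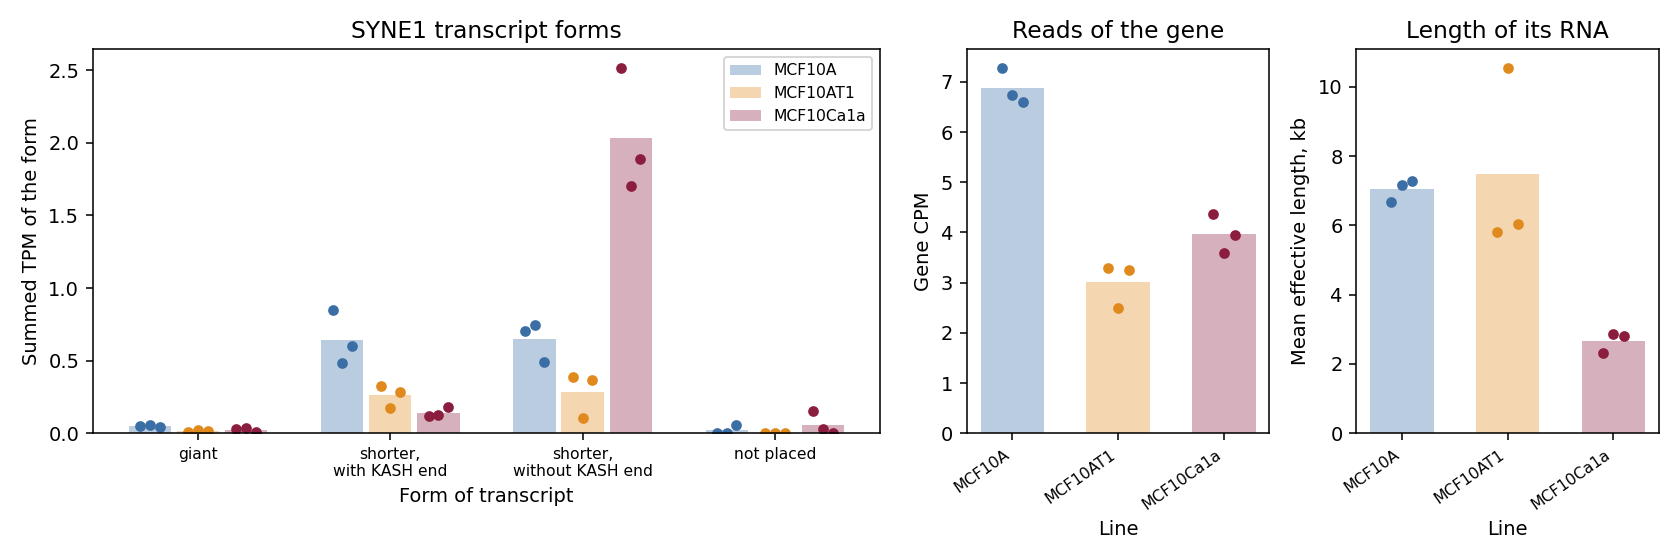
SYNE1 by form of transcript in summed TPM (left), gene CPM (middle) and mean effective length in kb (right); bars are means of 3 libraries and dots are libraries. MCF10Ca1a is highest for shorter transcripts without the KASH-coding end (mean 2.04 TPM) although its reads lie below those of MCF10A, and its mean effective length is 2.67 kb against 7.05 kb.

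Both SUN genes changed by at most 0.50 on the log2 scale of estimated counts. SUN1, on chromosome 7 (816615 to 896435, plus strand), stood at 144, 135 and 125 CPM in MCF10A, 121, 120 and 118 CPM in MCF10AT1, and 121, 122 and 116 CPM in MCF10Ca1a. MCF10A was above both derived lines, which overlapped. SUN1 fell slightly in each against MCF10A (log2 change -0.17, SE 0.0560, and -0.17, SE 0.0565; edgeR adjusted p = 0.0180 and 0.0114), and 88.0% of the tested genes had a larger change between MCF10Ca1a and MCF10A. The call for MCF10AT1 was lost without MCF10A replicate 2 (adjusted p = 0.0504), without MCF10AT1 replicate 3 (0.0554) and in a fit of only those 2 lines (0.0613), and that for MCF10Ca1a on the log2(TPM + 1) scale (limma adjusted p = 0.304). The change for MCF10AT1 was -0.29 on that scale, and that for MCF10Ca1a was -0.27 on counts scaled for length, both called. Between MCF10Ca1a and MCF10AT1 the difference was -0.01, with a 95% interval of -0.13 to 0.12.

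SUN2, on chromosome 22 (38734725 to 38794143, minus strand), was lowest in MCF10AT1. Its level was 116, 97.4 and 83.4 CPM in MCF10A, 78.8, 77.4 and 77.3 CPM in MCF10AT1, and 109, 105 and 114 CPM in MCF10Ca1a. MCF10AT1 lay below both other lines, and MCF10Ca1a lay within the wide range of MCF10A. SUN2 fell by 0.34 from MCF10A to MCF10AT1 (SE 0.0893; edgeR adjusted p = 0.00429) and rose by 0.50 from MCF10AT1 to MCF10Ca1a (SE 0.0901; adjusted p = 1.79e-04). Without MCF10A replicate 1 the first of these changes was -0.21 (edgeR adjusted p = 0.00499). MCF10Ca1a against MCF10A gave 0.15 with a 95% interval of -0.04 to 0.35 (adjusted p = 0.133), which became 0.27 (adjusted p = 6.88e-04) without MCF10A replicate 1. Antisense genes share exon bases with SUN2 (9.93% with AL021707.5 and 7.88% with AL021707.3) and AL353708.3, on the opposite strand, shares 6.14% of those of TOR1AIP1. On the same strand, AC002116.1 shares 3.96% of the exon bases of SYNE4 and DNAL4 shares 1.68% of those of SUN2, where strand does not tell reads apart. The libraries were stranded, but whether strand was used in counting is not given in the sources used here.

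TOR1A and its activator TOR1AIP1 fell at different steps. TOR1A, on chromosome 9 (129812944 to 129824134, minus strand), stood at 58.5, 58.6 and 60.03 CPM in MCF10A, 66.3, 69.8 and 66.4 CPM in MCF10AT1, and 35.8, 34.9 and 36.2 CPM in MCF10Ca1a. The libraries of a line lay close together and no lines overlapped. TOR1A was 1.14-fold higher in MCF10AT1 than in MCF10A (log2 change 0.19, SE 0.0451; edgeR adjusted p = 0.00205), a call that was lost on the log2(TPM + 1) scale (0.05). It fell by 0.92 from MCF10AT1 to MCF10Ca1a (SE 0.0472; adjusted p = 4.11e-10) and was 1.66-fold lower in MCF10Ca1a than in MCF10A (adjusted p = 3.90e-09).

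TOR1AIP1, on chromosome 1 (179882042 to 179925000, plus strand), was 120, 125 and 128 CPM in MCF10A, 77.4, 74.9 and 71.2 CPM in MCF10AT1, and 74.1, 77.5 and 80.2 CPM in MCF10Ca1a. Every library of the derived lines lay below MCF10A, and these lines overlapped each other. It fell by 0.74 from MCF10A to MCF10AT1 (SE 0.0524; edgeR adjusted p = 3.42e-08) and was lower in MCF10Ca1a than in MCF10A (log2 change -0.69, SE 0.0530; adjusted p = 2.60e-08). Between the derived lines the change was 0.05, with a 95% interval of -0.06 to 0.17 (adjusted p = 0.376). On the log2(TPM + 1) scale that difference was 0.32 and was called (limma adjusted p = 5.85e-04).

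The other torsin genes moved in both directions. Of 5 genes tested (TOR1B, TOR2A, TOR3A, TOR4A and TOR1AIP2), 2 rose and 3 fell between MCF10Ca1a and MCF10A, and 1 rose and 3 fell between MCF10AT1 and MCF10A. Of all genes tested, 80.9% and 61.6% were called in these comparisons. The median log2 change of the 5 genes was -1.38 between MCF10Ca1a and MCF10A, against -0.05 over all genes tested. TOR1B, the closest relative of torsinA and its neighbour on chromosome 9, went against TOR1A in MCF10Ca1a: it stood at 30.3 to 33.6 CPM in MCF10A and 69.9 to 72.5 CPM in MCF10Ca1a (log2 change 1.16, SE 0.0581; edgeR adjusted p = 2.33e-10). TOR4A fell from 24.01 to 30.7 CPM in MCF10A to 1.07 to 1.56 CPM in MCF10Ca1a (log2 change -4.31, SE 0.135; adjusted p = 2.00e-12), and its MCF10AT1 libraries, at 25.1 to 25.6 CPM, lay within the range of MCF10A. TOR3A fell by 1.64 on the same comparison, and TOR2A fell by 1.38. TOR1AIP2, which codes for LULL1, the torsin activator of the endoplasmic reticulum, fell by 0.81 in MCF10AT1 against MCF10A, where TOR1AIP1 fell too, and rose by 0.65 in MCF10Ca1a against MCF10A, where TOR1AIP1 fell.

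Other SUN and KASH genes, several of them known from the germ line, had few reads. SUN5 and KASH5 had 0 counts in all 9 libraries, and IRAG2 had 6 to 8 counts in MCF10A, 1 to 4 in MCF10AT1 and 0 in MCF10Ca1a, too few to be tested. The MCF10A libraries held 0, 4 and 1 counts of SUN3 and the MCF10Ca1a libraries 16, 6 and 14, and SUN3 was called higher (log2 change 3.65, SE 0.696; edgeR adjusted p = 2.55e-04), a fold that rests on 0 to 4 counts in MCF10A. SUN3 passed the filter on low counts only through the MCF10Ca1a libraries, so that this call is not independent of the filter. SPAG4 (SUN4) fell by 1.54 in MCF10Ca1a against MCF10A (SE 0.246; edgeR adjusted p = 5.32e-05), from a mean of 1.06 to 0.361 CPM. By mean TPM in MCF10A, SPAG4 (1.12) stood above SYNE3 (0.566) and SYNE4 (0.107) and below SYNE1 (1.36). In MCF10Ca1a SUN3 (0.781) and SPAG4 (0.662) stood above SYNE3 (0.230) and below SYNE4 (0.908).

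Among 7 cytoskeletal partners, 3 rose and 4 fell between MCF10Ca1a and MCF10A, where 39% of all genes tested rose and 41.9% fell. Their median log2 change was -0.26, against -0.05 over all genes. PLEC, which codes for plectin, the partner of nesprin-3, rose 3.30-fold, from 608, 609 and 660 CPM to 2244, 1917 and 2032 CPM (log2 change 1.72, SE 0.0959; edgeR adjusted p = 7.66e-10), while SYNE3 fell on the same comparison. DYNC1H1, the heavy chain of dynein, rose 2.68-fold (log2 change 1.42, SE 0.0951; adjusted p = 5.72e-09). The kinesin-1 genes KIF5B, KLC1 and KLC2, partners of nesprin-4, fell on that comparison (log2 change -0.37, -0.40 and -0.74), and between MCF10AT1 and MCF10A (-0.26, -0.26 and -0.30), where SYNE4 rose. Of the other large spectrin-repeat genes, MACF1 rose (0.84) and DST, UTRN and DMD fell in MCF10Ca1a against MCF10A (-0.76, -0.97 and -1.09).

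Of 6 genes of the nuclear membrane and lamina, 1 rose and 4 fell between MCF10Ca1a and MCF10A. Of all genes tested, 80.9% were called there, which is near that count. Their median log2 change was -0.87, against -0.05 over all genes. LMNA did not pass (0.01, SE 0.0767), LMNB1 fell by 2.84, LMNB2 fell by 1.40, and EMD, which codes for emerin, had 0, 1 and 0 counts in MCF10Ca1a against 3409 to 3825 in MCF10A.

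For each gene, the 2 genes, among 15854 other tested genes with a symbol, whose centred log2 CPM lay closest over the 9 libraries were identified, as a description with no test, since libraries of a line share their source and depth. They were R3HDM1 and LSG1 for SUN1 (root mean square distance 0.0326 and 0.0332), PTGFRN and EIF4G1 for SUN2 (0.0353 and 0.0469), and MTR and EXT1 for SYNE1 (0.124 and 0.130). They were DGCR11 and BRIP1 for SYNE2 (0.101 and 0.120), GNPAT and TOMM20 for TOR1AIP1 (0.0415 and 0.0527), and RUVBL1 and RDX for TOR1A (0.0360 and 0.0390). For SYNE3 they were SYT12 and SULF2 (0.185 and 0.192), and SULF2 went from 43.7 to 152 to 24.5 CPM in the order of the lines. For SYNE4 the nearest of these genes lay farther off: LPL (0.622) and IGKV2-30 (0.797) both had means under 2 CPM in every line.

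The estimated counts of a library summed to 62898823 to 69508842 in MCF10A and MCF10AT1 and to 32930503 to 35243012 in MCF10Ca1a, so that low counts are less precise in MCF10Ca1a. Epithelial markers were high in every library, at a summed 3160.5 to 5539 CPM over 6 genes, though single markers moved in both directions. By their means, EPCAM (267 against 30.3 CPM), CDH1 (749 against 145), KRT8 (661 against 184) and KRT18 (856 against 347) were higher in MCF10Ca1a than in MCF10A, and KRT5 (686 against 2548) and KRT14 (6.26 against 316) were lower. Of the fibroblast, endothelial, leukocyte and muscle markers, COL1A2, PDGFRA, CDH5, VWF, PTPRC, LYZ, ACTA1, DES and MYH1 stayed under 0.3 CPM. Summed fibroblast markers were 33.5 to 34.6 CPM in MCF10AT1 against 12.9 to 14.0 CPM in MCF10A and 5.09 to 5.75 CPM in MCF10Ca1a, nearly all DCN and COL1A1. DCN was higher in MCF10AT1 than in MCF10A (a mean of 30.7 against 4.41 CPM) and COL1A1 was lower (3.31 against 9.16 CPM). PECAM1 (42.1 to 49.4 CPM) and CD68 (40.6 to 44.3 CPM) were highest in MCF10Ca1a, and their part in the results was not tested.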

How the data were processed

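Polyadenylated RNA of 9 libraries, 3 for each of MCF10A, MCF10AT1 and MCF10Ca1a, was sequenced after stranded mRNA library preparation, per the labels' protocols. Salmon and the build hg38 are named in the submitters' processing notes, and the annotation version is not given in the sources used here. The authors deposited estimated counts per gene and per transcript, gene counts in a length-scaled and a scaled form, and TPM per gene and per transcript. Salmon shares reads among similar transcripts, so values of single transcripts are less certain than gene sums.

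The members and gene lists were chosen with earlier results of these data known. The deposited counts were rounded, filtered with filterByExpr (minimum count 10, minimum total 15) and tested with edgeR 4.0.16 (glmQLFit, glmQLFTest, TMM) in R 4.3.3, with all 9 libraries in 1 fit and Benjamini-Hochberg adjustment over 17910 genes. CPM values are scaled by TMM. SE and 95% intervals come from that fit. DESeq2 1.42.0 and limma 3.58.1 on log2(TPM + 1) and log2(TPM + 0.1) were alternatives, with the other count tables, no filter, only the lines compared, a replicate block and each library left out. Transcript shares were tested with limma over transcripts of a mean of at least 0.1 TPM in 1 line and a gene TPM of at least 0.5 in every library. Sums by form were compared with exact permutation tests. Named genes were the 8 members, list genes called with a change of at least 2-fold between MCF10Ca1a and MCF10A or with 0 to 3 counts in every library, the 2 nearest genes of each member, and SYNE1 and SYNE2 transcripts with 5% or more of a line's gene TPM. Genes named outside that rule (IRAG2, TOR1AIP2, LMNA, KIF5B, KLC1, KLC2, MACF1, DST, UTRN), and the transcripts ENST00000358025.7 and SYNE2-207, were chosen after their values were seen. SYNE1-AS1, AL021707.5, AL021707.3, AL353708.3, AC002116.1 and DNAL4 are in no list and are named because their exons overlap a member's. Positions are from GENCODE 29 on GRCh38, matched by unversioned identifier. The edgeR, DESeq2, limma and transcript share scripts were tested on simulated data with far fewer changed genes than are called here. The simulated gene-level limma test used CPM, not TPM. These tests do not show how the methods behave where most genes change. No 2 libraries agreed within counting noise. Same-numbered libraries did not deviate together (correlations of -0.06 to 0.03).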

Additional observations from a re-analysis of the deposited data

How the results depend on the processing

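Over 19 alternatives for each of the 8 genes in 3 comparisons, 16 of the 24 results kept their direction and their side of the threshold throughout. Of 456 single values, 428 did, 11 lost the call, 4 gained one and 13 changed sign, with the cause not tested. SYNE1 in MCF10Ca1a against MCF10A turned from -0.79 to 0.57 on length-scaled counts, 0.58 on scaled counts, 0.46 on log2(TPM + 1) with and without a filter, and 0.68 on log2(TPM + 0.1). SUN1 in MCF10Ca1a against MCF10AT1 (-0.01) became 0.0411 with DESeq2 size factors and with the DESeq2 Wald test, 0.19 on log2(TPM + 1) with and without a filter, 0.20 on log2(TPM + 0.1), 0.00912 with only the 2 lines fitted and -0.0330 to 0.0136 without a library in turn (0.0136 without MCF10Ca1a replicate 3), and was never called. TOR1AIP1 there (0.05) became -0.0352 without a filter on low counts. The TPM scales move the whole table: the median change of all genes went to -0.11, 0.10 and 0.21 on log2(TPM + 0.1) in the order of comparisons. The share of calls that were higher went from 48.4% to 37.0% in MCF10AT1 against MCF10A, and from 48.5% to 61.2% in MCF10Ca1a against MCF10AT1. The replicate block changed no call of the 8 genes (8, 7 and 6 called), and the replicate numbers do not pair the libraries. It gave 3 SYNE2 transcripts in each comparison of MCF10Ca1a, and 10846, 14397 and 13917 genes.

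SYNE2 transcripts called (0, 4 and 4) became 9 and 10 in the comparisons with MCF10A at a pseudocount of 1 TPM, all higher, and 2 in MCF10Ca1a against MCF10A at a mean of 1 TPM. SYNE1 transcripts called became 1 and 3 in the comparisons of MCF10Ca1a at a gene minimum of 0.1 TPM, and 1 in MCF10Ca1a against MCF10AT1 with 1% added to the share at that minimum. Without a library in turn, at either pseudocount, SYNE2 calls ranged from 0 to 1 in MCF10AT1 against MCF10A, 2 to 6 in MCF10Ca1a against MCF10A and 1 to 5 in MCF10Ca1a against MCF10AT1, and SYNE1 calls from 0 to 2 in both comparisons of MCF10Ca1a. With giant SYNE2 transcripts taken from an effective length of 10000, a limit chosen after the data were seen, the giant sum differed by -2.37, -3.22 and -0.85 TPM in the order of comparisons, against 0.15, 0.21 and 0.06. That small difference also turned negative without MCF10AT1 replicate 3 in the first comparison (-0.0405 to 0.255 over the libraries left out), and without MCF10AT1 replicate 1, MCF10AT1 replicate 2 or MCF10Ca1a replicate 1 in the last (-0.0422, -0.0300 and -0.0252; -0.0422 to 0.254 over all). Depth limits SYNE1, SYNE3 and SYNE4 most, at 121, 60 and 8 counts in their lowest libraries.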
